A study of Mus musculus with 6 samples.

Results

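The genes described are the Wnt ligands, the Frizzled receptors and 2 families of secreted antagonists, the Dickkopf (Dkk) and the secreted Frizzled-related (Sfrp) proteins. The rule goes by symbol and uses no measured value. The rule took 37 of the 55357 genes in the deposited table, namely 19 Wnt, 10 Fzd, 4 Dkk and 4 Sfrp genes, and no symbol was repeated. RNA was measured by sequencing in 6 subcutaneous tumours, 3 from mice given folinic acid (FA), a reduced folate, and 3 from mice given phosphate-buffered saline (PBS) by the same route. All hosts were C57BL/6J mice that had received 250000 cells of KPC1242, a transplantable mouse pancreatic ductal adenocarcinoma line, under the skin, so every tumour came from the same line and none arose in the pancreas. The mice were gavaged daily with 2 mg FA or with PBS between days 8 and 12, and the tumours were collected on day 14. The sources used here give neither the age nor the sex of the mice, and do not state outright that every tumour had its own mouse. The unit of the p-values is thus the tumour. They set the FA minus PBS difference against the spread between tumours within groups.

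Wnt proteins are lipid-modified secreted ligands that bind Frizzled receptors on the cell surface. With the co-receptors Lrp5 and Lrp6 they stabilise beta-catenin, which enters the nucleus and turns on target genes with TCF/LEF factors; other ligands, such as Wnt5a and Wnt11, signal mostly without beta-catenin, through cell polarity and calcium. Dkk1, Dkk2 and Dkk4 act on Lrp5 and Lrp6, Dkk3 is a divergent member of that family, and Sfrp proteins carry a Frizzled-like domain with which they bind Wnt ligands. In pancreatic cancer both tumour cells and fibroblasts can make ligands and antagonists.

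Promoter sequences are shown for 3 members whose level in 1 tumour, FA replicate 3, was the highest of the 6 (Sfrp2 and Wnt11) or the lowest (Dkk2). As 19 of the 22 tested members were highest or lowest there, these 3 are picked examples and not a defined group. Each is 300 bases of the plus strand from RefSeq on GRCm38.p6, from 250 bases before the gene's start, at chr3:83766071-83766370 for Sfrp2, chr7:98834862-98835161 for the upstream one of 2 Wnt11 starts, and chr3:132085042-132085341 for Dkk2. Capitals mark TATAAA, the core of a TATA box, and CTTTGA, a core of TCF/LEF binding motifs, each searched on both strands, where CTTTGA on the other strand reads TCAAAG.
Sfrp2: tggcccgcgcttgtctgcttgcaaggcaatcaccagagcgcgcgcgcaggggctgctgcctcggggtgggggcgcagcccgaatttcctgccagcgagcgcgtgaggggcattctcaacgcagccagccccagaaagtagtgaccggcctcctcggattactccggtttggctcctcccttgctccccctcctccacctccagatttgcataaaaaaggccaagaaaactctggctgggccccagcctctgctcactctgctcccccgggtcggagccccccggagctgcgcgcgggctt
Wnt11: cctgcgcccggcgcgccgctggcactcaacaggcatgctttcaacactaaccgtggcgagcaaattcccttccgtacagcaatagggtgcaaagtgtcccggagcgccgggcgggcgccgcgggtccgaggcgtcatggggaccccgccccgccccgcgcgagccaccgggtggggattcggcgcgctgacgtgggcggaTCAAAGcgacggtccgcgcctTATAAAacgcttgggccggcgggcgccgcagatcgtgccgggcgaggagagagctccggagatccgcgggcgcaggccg
Dkk2: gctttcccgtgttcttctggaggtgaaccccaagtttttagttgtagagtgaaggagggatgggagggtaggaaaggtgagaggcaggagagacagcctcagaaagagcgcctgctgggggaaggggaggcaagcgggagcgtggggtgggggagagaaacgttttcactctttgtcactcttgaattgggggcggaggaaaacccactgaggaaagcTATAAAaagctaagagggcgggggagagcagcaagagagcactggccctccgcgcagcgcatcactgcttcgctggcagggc
The Wnt11 sequence held 1 match to each motif, Dkk2 held 1 TATAAA, and Sfrp2 held neither. Of 25 members with a promoter in the RefSeq table, 4 held TATAAA and 4 held CTTTGA in any listed start. Of all 32851 promoters of that length, 13.6% and 16% did. The first are counts of genes and the second shares of single promoters, so they are not like measures. The sources used here do not name the build behind the deposited values, so these coordinates are RefSeq's.

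The values are TPM, a measure of transcript abundance corrected for transcript length and set to a fixed sum per tumour, which allows levels to be compared between genes but keeps no depth. The number of genes above 0 ranged from 23858 to 25669. The epithelial markers Krt8, Krt18, Krt19, Krt7, Epcam and Cdh1 were all expressed and together stood between 5000 and 5612 TPM with FA and between 4603 and 5304 TPM with PBS. FA replicate 3 stood apart: across tested genes its correlations with the other tumours reached at most 0.968, and 29.3% of tested genes had their highest value there and 37.3% their lowest. All 10 fibroblast, all 8 endothelial and all 8 skeletal muscle markers were highest in it. Values are given below in the order of replicates 1, 2 and 3 of each group. In whole-tumour RNA, more cells of a type and more RNA per cell cannot be told apart.

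Part of the family was expressed. Of the 37 genes, 22 averaged at least 1 TPM over the 6 tumours and were tested, where 15023 of all 55357 genes did. Of the members, 13 averaged at least 5 TPM, and 5 (Wnt3a, Wnt8a, Wnt8b, Dkk1 and Dkk4) were listed at 0 in every tumour. No difference between FA and PBS tumours passed the test for any of the 22. By limma on log2(TPM + 1), 0 members were higher and 0 lower at an adjusted p under 0.05, where 0% of the 15023 tested genes were called, and 0 members had an unadjusted p under 0.05, where 1.28% of tested genes did. The smallest unadjusted p was 0.0811, for Dkk2, and every member had an adjusted p of 1. The mean was higher in FA tumours for 10 of the 22 members and lower for 12, where 50.7% of tested genes had the higher mean in FA tumours, and the median log2 difference was -0.07, beside 0.00 over all tested genes. The groups were without overlap for 1 member, Fzd8, which is 4.55% of those tested, where the share over all tested genes was 4.69%.

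**Figure D1:**
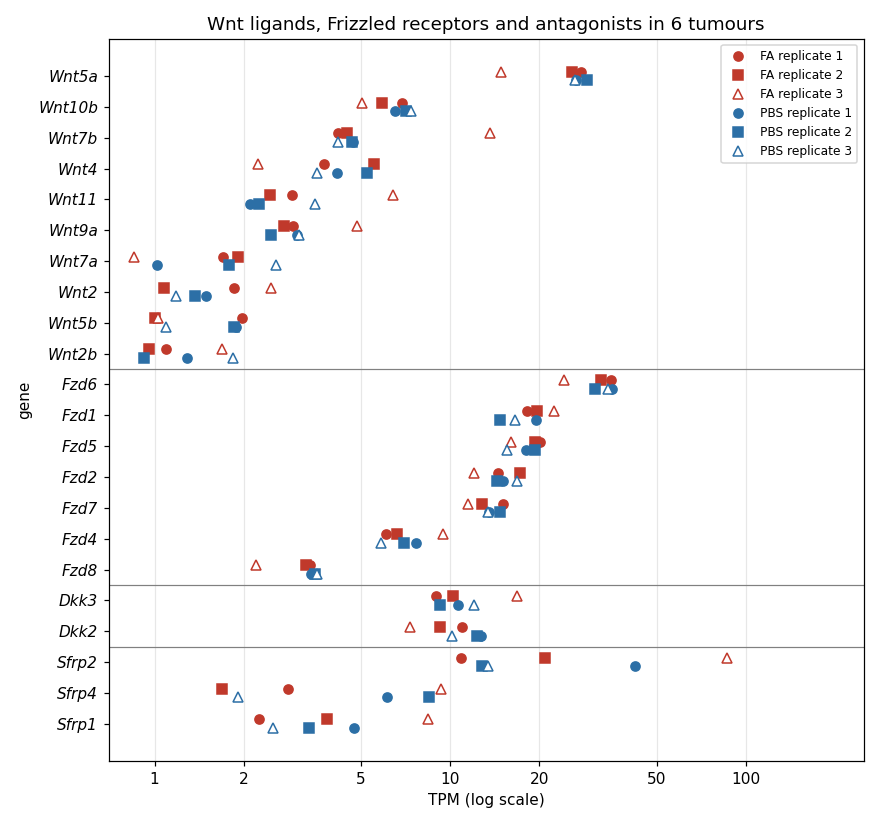
TPM (log axis) of the 22 tested members in each tumour, by class from Wnt ligands at the top to Sfrp antagonists at the bottom; red symbols are the 3 FA tumours, blue symbols the 3 PBS tumours, and symbol shape is the replicate number. Wnt5a and Fzd6 lead their classes, and the open red triangle of FA replicate 3 lies at an edge of the row for 19 of the 22 genes.

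Among the ligands, Wnt5a (ENSMUSG00000021994), the prototype of signalling without beta-catenin, had the highest level in all 6 tumours. It stood at 27.7, 25.8 and 14.9 TPM in FA replicates 1, 2 and 3, against 26.7, 29.0 and 26.4 TPM in PBS replicates 1, 2 and 3. FA replicate 3 alone was low, and the other FA tumours lay within or beside the PBS range. The log2 difference was -0.30 ± 0.22 (standard error; 95% interval -0.83 to 0.23), and -0.03 without FA replicate 3. Wnt10b, a ligand of the beta-catenin branch, stood at 6.89, 5.88 and 5.03 TPM with FA, against 6.52, 7.07 and 7.36 TPM with PBS, with a log2 difference of -0.21 ± 0.14. The groups overlapped through FA replicate 1.

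Wnt7b (ENSMUSG00000022382), an epithelial ligand in several organs, showed, on the log scale, the widest gap of any tested ligand between 1 tumour and the rest. Its values were 4.16, 4.49 and 13.6 TPM with FA, against 4.68, 4.66 and 4.18 TPM with PBS. The 5 tumours other than FA replicate 3 thus spanned 4.16 to 4.68 TPM, and the log2 difference of 0.44 ± 0.39 (95% interval -0.50 to 1.38) became -0.05 without that tumour. Wnt11 stood at 2.92, 2.45 and 6.42 TPM with FA, against 2.11, 2.26 and 3.49 TPM with PBS (log2 difference 0.38 ± 0.32, and 0.04 without FA replicate 3). Wnt9a was at 2.94, 2.74 and 4.84 TPM with FA, against 3.04, 2.47 and 3.07 TPM with PBS. For both genes FA replicate 3 was the highest tumour and the remaining FA values lay inside the PBS range.

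Wnt4, which is active in kidney and reproductive tract development, ran the other way, at 3.73, 5.51 and 2.23 TPM with FA, against 4.15, 5.24 and 3.53 TPM with PBS. Its highest and its lowest value both fell in the FA group, and the log2 difference was -0.18 ± 0.27. Wnt7a, at 1.70, 1.91 and 0.85 TPM with FA, against 1.02, 1.78 and 2.57 TPM with PBS, also had its lowest value in FA replicate 3. The ligands nearest to the 1 TPM limit overlapped between groups. Wnt2 stood at 1.85, 1.08 and 2.47 TPM with FA, against 1.49, 1.37 and 1.18 TPM with PBS. Wnt5b, the close relative of Wnt5a, stood at 1.97, 1.00 and 1.03 TPM with FA, against 1.88, 1.85 and 1.09 TPM with PBS. Neither gene separated the groups. Wnt2b ranged from 0.96 to 1.69 TPM with FA and from 0.92 to 1.84 TPM with PBS. Wnt10a, at a mean of 0.995 TPM, fell just outside the limit and was not tested, as was Wnt16, at 0.747 ± 0.404 TPM with FA, against 0.753 ± 0.556 TPM with PBS (SD, n = 3 each). Wnt6, Wnt1, Wnt9b and Wnt3 reached at most 0.18 TPM in any tumour, Wnt1 being the founding member of the family.

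The summed level of the 19 ligands varied less than their make-up. It was 56.6, 52.8 and 55.9 TPM with FA, against 54.2, 59.3 and 56.4 TPM with PBS, so FA replicate 3 lay inside the range of the others. Wnt5a made up 48.9%, 48.8% and 26.6% of that sum with FA, against 49.3%, 48.9% and 46.8% with PBS. Wnt7b made up 7.36%, 8.5% and 24.4% with FA, against 8.64%, 7.86% and 7.41% with PBS. The ratio of Wnt7b to Wnt5a was 0.15, 0.174 and 0.917 with FA, against 0.175, 0.161 and 0.158 with PBS, which sets FA replicate 3 apart from both its own group and the PBS tumours. Wnt10b, second in 5 tumours, stood behind Wnt7b and Wnt11 in FA replicate 3.

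**Figure D2:**
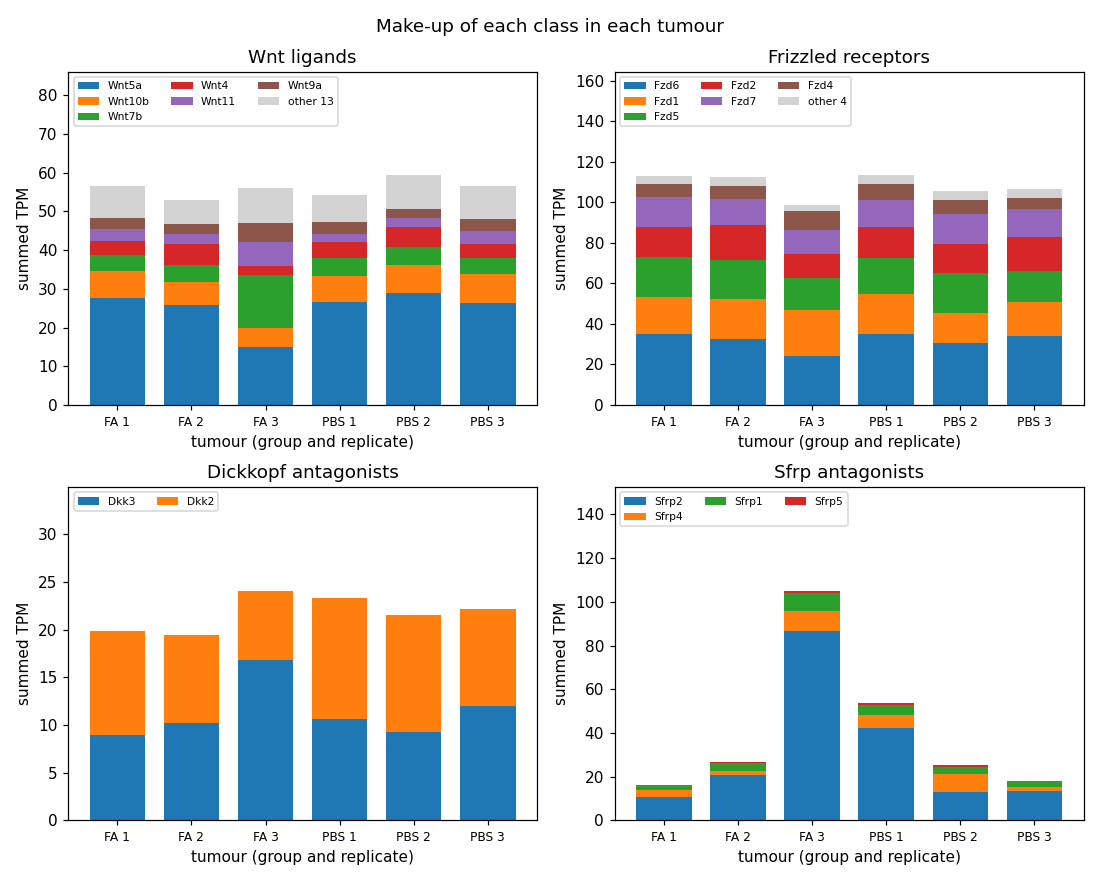
Summed TPM of each class in each tumour, FA tumours on the left and PBS tumours on the right of each panel, with bars divided by gene. Ligand sums are alike, at 52.8 to 59.3 TPM, while the Wnt7b part is larger in FA replicate 3 and the Sfrp sum ranges from 16.1 to 105 TPM.

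The Frizzled receptors had the smallest median spread within groups of the 4 classes, an SD of 0.17 on the log2 scale, though 6 of the 7 tested were above the median of 0.16 over all tested genes. Fzd6 (ENSMUSG00000022297), which can hold back beta-catenin signalling and acts in planar cell polarity, was highest in all 6 tumours, at 35.0, 32.4 and 24.2 TPM with FA, against 35.1, 30.8 and 34.1 TPM with PBS. FA replicate 3 was the lowest, and the log2 difference of -0.14 ± 0.14 became 0.02 without it. Below it 4 receptors, Fzd1, Fzd5, Fzd2 and Fzd7, changed places from tumour to tumour between ranks 2 and 5. Fzd1 stood at 18.2, 19.7 and 22.5 TPM with FA, against 19.5, 14.7 and 16.5 TPM with PBS. It had the smallest unadjusted p of the receptors, 0.114 by limma, with a log2 difference of 0.24 ± 0.13 (95% interval -0.07 to 0.55), and 0.16 without FA replicate 3. Values of the groups overlapped through PBS replicate 1. With 1 tumour left out, the unadjusted p by limma ran from 0.045 (without PBS replicate 1) to 0.32 (without PBS replicate 2). Fzd5, a receptor of intestinal and other epithelia, was at 20.1, 19.4 and 16.0 TPM with FA, against 18.1, 19.4 and 15.6 TPM with PBS.

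Fzd2, a Wnt5a receptor, was at 14.5, 17.2 and 12.0 TPM with FA, against 15.1, 14.4 and 16.9 TPM with PBS. Fzd7, a beta-catenin branch receptor of epithelial stem cells, was at 15.1, 12.8 and 11.5 TPM with FA, against 13.6, 14.8 and 13.5 TPM with PBS. Their log2 differences were both -0.09, with intervals from -0.43 to 0.25 for Fzd2 and from -0.37 to 0.20 for Fzd7. Fzd4, the Norrin receptor of blood vessels, was the only receptor besides Fzd1 with its highest value in FA replicate 3, at 6.07, 6.62 and 9.47 TPM with FA, against 7.64, 7.0 and 5.82 TPM with PBS. The summed level of 8 endothelial markers was 64.2, 83.3 and 243 TPM with FA, against 111, 70.2 and 84.1 TPM with PBS, so Fzd4 and these markers shared their highest tumour and PBS replicate 1 as the next, an order that the fibroblast, pericyte, macrophage and skeletal muscle sums had too. The part of any of these cells in the Fzd4 level was not tested. Fzd8, at 3.35, 3.24 and 2.21 TPM with FA, against 3.39, 3.49 and 3.54 TPM with PBS, was the member without overlap. Its FA values other than replicate 3 lay within 0.3 TPM of every PBS value, and the log2 difference was -0.20 ± 0.16, or -0.06 without that tumour (unadjusted p = 0.255 and 0.63, limma). Fzd9, Fzd3 and Fzd10 stayed between 0.08 and 0.55 TPM.

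Of the Dickkopf genes only Dkk3 and Dkk2 were above 0. Dkk2 (ENSMUSG00000028031), which binds Lrp5 and Lrp6 and whose promoter is printed above, stood at 10.96, 9.21 and 7.31 TPM with FA, against 12.7, 12.3 and 10.2 TPM with PBS. Of all members it came closest to a group difference, with a log2 difference of -0.33 ± 0.16 (95% interval -0.72 to 0.05), but the groups overlapped, since FA replicate 1 was above PBS replicate 3. Leaving out each tumour in turn gave differences from -0.46 to -0.20. The unadjusted p by limma then ran from 0.029 without FA replicate 1 to 0.21 without PBS replicate 1. Dkk3, often made by fibroblasts and muscle, was at 8.92, 10.2 and 16.8 TPM with FA, against 10.6, 9.27 and 12.0 TPM with PBS. Its log2 difference of 0.12 ± 0.23 became -0.14 without FA replicate 3. The ratio of Dkk3 to Dkk2 was 0.814, 1.11 and 2.30 with FA, against 0.833, 0.755 and 1.18 with PBS.

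The Sfrp genes differed most between tumours of the same group. Sfrp2 (ENSMUSG00000027996), a fibroblast product, stood at 10.9, 20.9 and 86.5 TPM with FA, against 42.1, 12.8 and 13.4 TPM with PBS. The highest tumour was thus 7.96 times the lowest, both of them FA tumours, and the next highest was PBS replicate 1. The log2 difference was 0.47 ± 0.79 (95% interval -1.41 to 2.35), and -0.34 without FA replicate 3. Sfrp1, a close relative, was at 2.25, 3.82 and 8.39 TPM with FA, against 4.74, 3.34 and 2.52 TPM with PBS, again highest in FA replicate 3 and next in PBS replicate 1. The 10 fibroblast markers include Col1a1, Pdgfra and Pi16. Their sum was 1950, 2399 and 6617 TPM with FA, against 3594, 1895 and 2445 TPM with PBS. The same pair of tumours was on top of this sum and of Col1a1, but not of every marker. Pdgfra was next highest in FA replicate 2, at 11.16 TPM, against 10.34 TPM in PBS replicate 1. Pi16 was next highest in PBS replicate 2, at 17.85 TPM, against 12.87 TPM in PBS replicate 1. The endothelial, pericyte, macrophage and skeletal muscle sums also had FA replicate 3 on top and PBS replicate 1 next. The part of any of these cells in the Sfrp2 and Sfrp1 levels was not tested.

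Sfrp4 followed another order of tumours than Sfrp2 and Sfrp1. It was at 2.82, 1.69 and 9.34 TPM with FA, against 6.09, 8.49 and 1.92 TPM with PBS, a log2 difference of -0.30 ± 0.61, and -0.86 without FA replicate 3 (unadjusted p = 0.135, limma). PBS replicate 2, low for Sfrp2, was second highest here, as it was for the fibroblast marker Pi16. Dpt, another fibroblast marker, was like Sfrp4 higher in FA replicate 3, PBS replicate 1 and PBS replicate 2 than in the rest. Other fibroblast markers, such as Col1a1, were lowest in PBS replicate 2. The part of fibroblasts in the Sfrp4 level was not tested. Sfrp5, under the 1 TPM limit, was likewise higher in FA replicate 3, PBS replicate 1 and PBS replicate 2, at 0.19, 0.06 and 1.00 TPM with FA, against 0.78, 0.73 and 0.15 TPM with PBS. Summed over both families, antagonists stood at 0.636, 0.868 and 2.31 times the ligand sum with FA, against 1.42, 0.790 and 0.711 times with PBS.

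**Figure D3:**
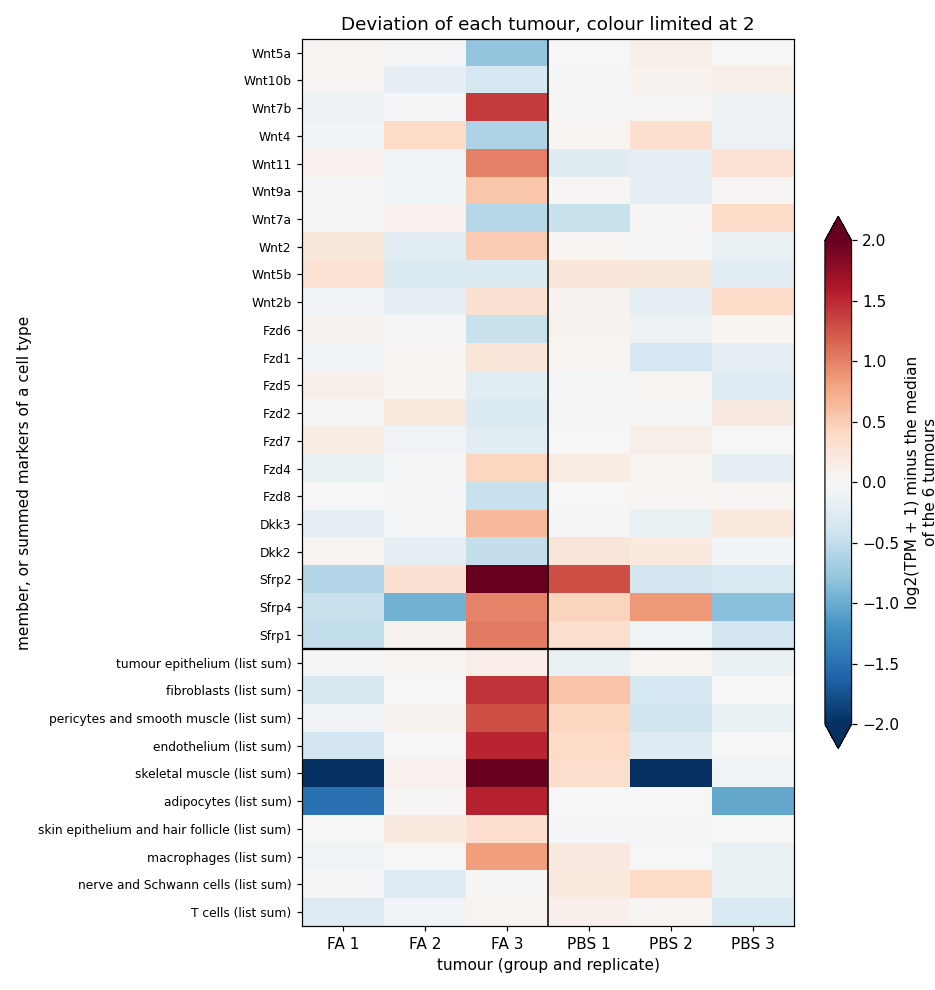
Deviation of each tumour from the median of the 6, in log2(TPM + 1), for the 22 tested members and, below the line, for the summed markers of 10 cell types; red is higher, blue is lower, FA tumours are left and PBS tumours right. Among members the FA replicate 3 column holds red for Sfrp2, Wnt7b, Sfrp1, Wnt11, Sfrp4 and Dkk3, among others. It holds blue for Wnt5a and Wnt4, among others. The fibroblast, endothelial and muscle sums are red there. Colour is limited at 2, which the muscle sum passes also downwards in FA replicate 1 and PBS replicate 2.

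The spread within groups can be read from a pooled SD of log2(TPM + 1) over both groups. Its median was 0.27 over the 22 tested members, beside 0.16 over all tested genes, and 20 of the 22 members were above that value. Frizzled receptors ranged from 0.14 (Fzd7) to 0.25 (Fzd4), ligands from 0.15 (Wnt10b) to 0.60 (Wnt7b), and the Sfrp genes from 0.60 (Sfrp1) to 1.24 (Sfrp2). Without FA replicate 3 the median was 0.16 over members and 0.11 over all tested genes, with Wnt7b at 0.07 and Wnt5a at 0.07, while Sfrp2 and Sfrp4 were still at 0.84 and 0.75. For 10 members, 45.5% of those tested, the highest value was that of FA replicate 3, and for 9 members, 40.9%, the lowest was. Together that is 86.4% of tested members, where the share over all tested genes was 66.6%. The sign of the group difference turned for 10 of the 22 members when that tumour was left out, and 0 members were then called. How often the sign turned over all tested genes was not counted, so the 10 have no background share beside them.

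Markers of several other cell types moved with FA replicate 3. All 10 fibroblast, 6 pericyte, 8 endothelial, 8 skeletal muscle and 6 macrophage markers, and 3 of 4 tested adipocyte markers, were highest in that tumour, and none of these was at 0 in all tumours. Of the 6 tumour epithelial markers, Krt8, Krt19 and Epcam were also highest there and Cdh1 was lowest, and Epcam stood at 40.1, 46.3 and 111 TPM with FA, against 33.5, 67.2 and 26.1 TPM with PBS. Pericyte markers summed to 144 to 371 TPM with FA and 114 to 203 TPM with PBS, skeletal muscle markers to 12.8 to 1136 TPM with FA and 14.6 to 165 TPM with PBS. Adipocyte markers summed to 24.3 to 207 TPM with FA and 34.1 to 70.6 TPM with PBS, and macrophage markers to 435 to 823 TPM with FA and 417 to 526 TPM with PBS. Nerve markers summed to 48.8 to 59.5 TPM with FA and 52.7 to 77.6 TPM with PBS. Of the 5 tested nerve markers, 0 were highest in FA replicate 3. T cell markers summed to 10.3 to 13.0 TPM with FA and 10.0 to 13.6 TPM with PBS. Skin markers summed to 10.6 to 13.9 TPM with FA and 10.5 to 10.8 TPM with PBS, with Krt5 and Krt71 at 0 in every tumour. All of these sums overlapped between the groups. The part of these cells in the levels of Wnt7b, Wnt11, Wnt5a and the other members was not tested.

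**Figure D4:**
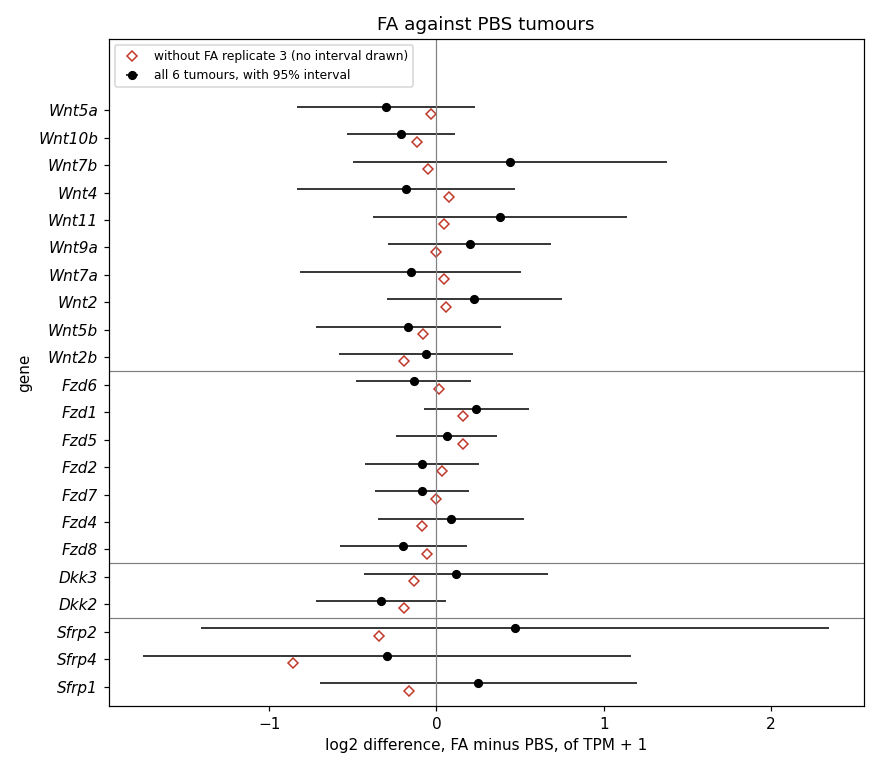
Log2 difference of TPM + 1, FA minus PBS, for the 22 tested members: filled circles with 95% intervals use all 6 tumours, and open diamonds leave out FA replicate 3. Every interval includes 0, and Sfrp2 and Sfrp4 have the widest.

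Genes that release, receive and relay the signal were taken as 8 lists with 89 genes, 68 of them tested. By limma 0 of the 68 were called in either direction and 0 had an unadjusted p under 0.05, where 0% and 1.28% of all tested genes did. The mean was higher in FA tumours for 27 of them, 39.7%, and lower for 41, where 50.7% of all tested genes had the higher mean in FA tumours, with a median log2 difference of -0.02. FA replicate 3 was the lowest tumour for 36 of them, 52.9%, and the highest for 18, 26.5%, where the shares over all tested genes were 37.3% and 29.3%. Of the genes for ligand release, Wls, the carrier that takes Wnt proteins to the cell surface, stood at 216, 192 and 131 TPM with FA, against 190, 189 and 213 TPM with PBS. Porcn, the enzyme that attaches the lipid, was at 95.2, 97.0 and 60.0 TPM with FA, against 77.8, 86.3 and 89.8 TPM with PBS. Both were lowest in FA replicate 3, as were Vps35 and Vps26a, retromer subunits that recycle Wls, with log2 differences of -0.12 and -0.13. All 5 tested genes of this list had a lower mean in FA tumours, with a median of -0.12, which was 0.02 without FA replicate 3.

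Among the 9 tested co-receptors and other receptors, 3 had a higher and 6 a lower mean in FA tumours. Lrp5 was at 123 ± 15.3 TPM with FA, against 130 ± 12.7 TPM with PBS, and Lrp6 at 34.0 ± 6.82 and 34.1 ± 1.36 TPM in the same order (SD, n = 3 each). Ror2, a Wnt5a receptor, was at 11.7 ± 1.11 TPM with FA, against 12.5 ± 0.964 TPM with PBS. Adgra2, a Wnt7 co-receptor of brain endothelium, was at 7.30, 9.66 and 19.3 TPM with FA, against 10.96, 7.24 and 8.30 TPM with PBS, with FA replicate 3 on top as for Wnt7b. Of 6 tested modulators outside the Dkk and Sfrp families, 5 had a higher mean in FA tumours and 1 a lower one, and 5 were highest in FA replicate 3, among them Gpc4, a cell-surface proteoglycan (log2 difference 0.31 ± 0.27), and Apcdd1, a membrane inhibitor (0.19 ± 0.25). Ndp, which encodes Norrin, the ligand of Fzd4, differed by -0.15 ± 0.18.

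R-spondins, which strengthen Wnt signals, averaged under 1 TPM, while their receptors Lgr4, Lgr5 and Lgr6 were expressed. Of the 5 tested genes of that list 2 had a higher and 3 a lower mean in FA tumours. Lgr5, a stem cell marker and target gene, was at 11.8, 9.72 and 2.78 TPM with FA, against 11.8, 10.9 and 10.5 TPM with PBS. Again FA replicate 3 alone was low, with a log2 difference of -0.58 ± 0.44, and -0.04 without it. Lgr6 had the highest level of these receptors, at 16.8 ± 4.48 TPM with FA, against 16.3 ± 3.01 TPM with PBS. Lgr4 was at 11.7 ± 1.35 TPM with FA, against 10.8 ± 0.721 TPM with PBS. The ubiquitin ligases that remove Frizzled receptors, Rnf43 and Znrf3, were at 8.23 ± 0.73 and 4.90 ± 0.702 TPM with FA, against 8.37 ± 1.06 and 5.62 ± 0.31 TPM with PBS.

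Beta-catenin (Ctnnb1) was abundant, at 989, 981 and 768 TPM with FA, against 910, 1036 and 956 TPM with PBS. In the destruction complex and Dishevelled list 4 genes had a higher and 8 a lower mean in FA tumours, with differences given here for Dvl1, which relays the signal from Frizzled (-0.13 ± 0.09), Btrc, which marks beta-catenin for degradation (-0.11 ± 0.12), and Amer1, an inhibitor of beta-catenin (-0.17 ± 0.20). Of 11 nuclear genes 5 had a higher and 6 a lower mean, and 8 were lowest in FA replicate 3. Among them Tle1, a co-repressor, differed by -0.25 ± 0.21, the TCF factor Tcf7l1 by -0.22 ± 0.18, and Tle4 by 0.17 ± 0.17. Lef1 averaged under 1 TPM.

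Target genes gave no common direction, with 3 higher and 4 lower means among 7 tested. Axin2, the most used readout of beta-catenin signalling, was at 2.63, 1.68 and 1.83 TPM with FA, against 2.13, 2.15 and 2.65 TPM with PBS, a log2 difference of -0.13 ± 0.17. Ccnd1, encoding cyclin D1, was at 202, 199 and 251 TPM with FA, against 209, 198 and 201 TPM with PBS. Myc stood at 117, 124 and 159 TPM with FA, against 115, 98.5 and 110 TPM with PBS, the 1 tested pathway gene without overlap between groups, which is 1.47% of the 68, where 4.69% of all tested genes had none. Its log2 difference was 0.29 ± 0.13 (unadjusted p = 0.0577, limma), and 0.16 without FA replicate 3. With 1 tumour left out, the unadjusted p by limma ran from 0.028 (without FA replicate 1) to 0.17 (without PBS replicate 2). Nkd2, a feedback inhibitor, differed by 0.20 ± 0.19. In the polarity and calcium list 5 genes had a higher and 8 a lower mean. Celsr2, a polarity cadherin, was at 15.9, 12.3 and 2.10 TPM with FA, against 14.1, 14.7 and 14.3 TPM with PBS, low in FA replicate 3 alone. Scrib differed by 0.13 ± 0.09 and Nfatc3, a calcium-regulated factor, by -0.12 ± 0.14.

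**Figure D5:**
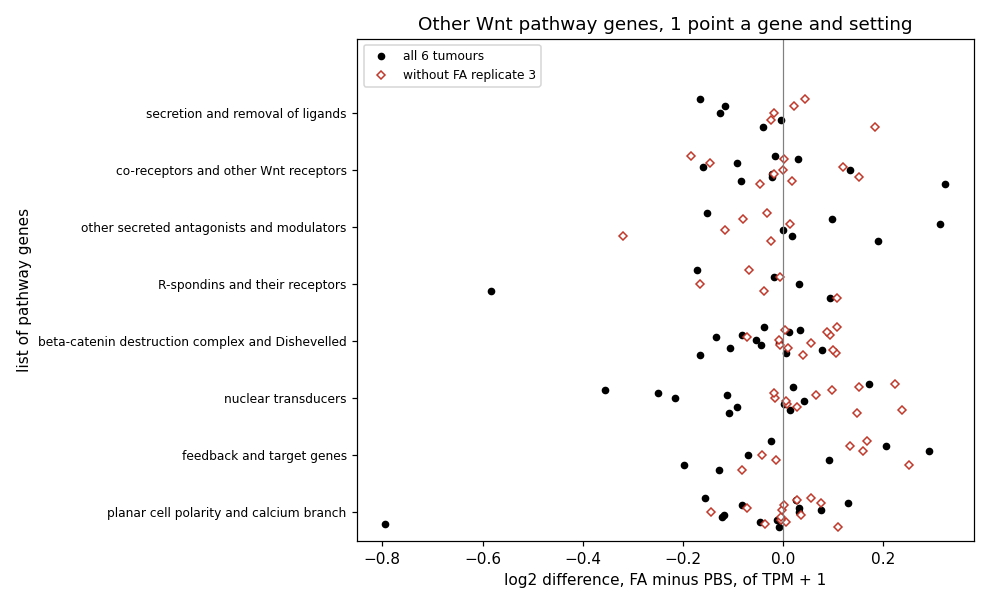
Log2 difference of TPM + 1, FA minus PBS, for 68 other Wnt pathway genes in 8 lists: filled circles use all 6 tumours and open diamonds leave out FA replicate 3. The lowest filled circles, Celsr2 and Lgr5, lie near 0 once that tumour is left out.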

How the data were processed

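The authors deposited TPM for 55357 Ensembl genes in 6 tumours, 1 column a tumour, matched by the samples' description labels. The prefix of these descriptions differs between the FA and PBS groups and is shared within each, so what it marks cannot be told apart from treatment. Stranded total RNA libraries were made from 4 µg of RNA of integrity number above 8 with 12 PCR cycles, per the labels' protocols. FastQC, STAR, RSEM and featureCounts are listed, with no version or role, per the submitters' processing notes. TPM keeps no depth, so no counting error is given.

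Members were matched by symbol. Values were analysed as log2(TPM + 1) with limma 3.58.1 in R 4.3.3, on 15023 genes whose mean reached 1 TPM, as FA against PBS with no covariate, empirical Bayes variances with a mean trend, two-sided p-values and Benjamini-Hochberg adjustment over all tested genes (threshold 0.05). The pseudocount of 1 makes differences of low genes smaller. The fit was tested on simulated data with independent genes, no outlying tumour and shifts larger than the difference of any member. That run therefore does not bear on a tumour like FA replicate 3 or on differences as small as the members'. The members, the 8 pathway lists and the 10 marker lists were chosen with earlier results of these data known. Every tested member is named; of each pathway list, up to 3 genes with the smallest unadjusted p and 12 fixed genes. Alternatives varied the pseudocount, filter, scaling, variance trend, array weights, replicate block and threshold, and left out each tumour in turn.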

Additional observations from a re-analysis of the deposited data

How the results depend on the processing

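Counts of called members, 0 higher and 0 lower in FA by limma, were 0 in every alternative run, also at an adjusted p under 0.1, and none of the 51 named genes was called in any. Over all tested genes 2 were called higher without the filter, and between 0 and 1 gene was called lower when 1 tumour was left out, the 1 without FA replicate 3. The members' median log2 difference was -0.0092 without the filter and ranged from -0.0797 to 0.0282 when 1 tumour was left out. The smallest adjusted p of a member under any alternative was 0.829. The median log2 difference of all genes stayed within 0.0166 of 0 under every alternative. With the replicate number as a block, 0 members were called. The differences stayed as they were (-0.33 for Dkk2), as they must in a balanced design. In that fit the unadjusted p of Dkk2 was 0.034 by limma (adjusted p 1). Deviations from the group means correlated at -0.208, 0.0533 and -0.0221 between same-numbered tumours. Between tumours of different number the correlations ran from -0.192 to 0.245. With so few tumours, whether the number pairs them cannot be told from these values. Array weights turned the sign for Wnt4 (0.080), Fzd4 (-0.0042), Dkk3 (-0.103), Sfrp2 (-0.077), Porcn (0.116), Lrp5 (0.020), Lrp6 (0.093) and Ctnnb1 (0.0073). Leaving out 1 tumour turned the sign for 13 members, with differences from the lowest to the highest for Wnt7b (-0.048 to 0.70), Wnt4 (-0.43 to 0.077), Wnt9a (-0.0042 to 0.32), Wnt7a (-0.37 to 0.045), Wnt2b (-0.20 to 0.086), Fzd6 (-0.24 to 0.016), Fzd5 (-0.024 to 0.16), Fzd2 (-0.21 to 0.035), Fzd4 (-0.085 to 0.20), Dkk3 (-0.14 to 0.29), Sfrp2 (-0.34 to 1.10), Sfrp4 (-0.86 to 0.11) and Sfrp1 (-0.17 to 0.60). It did so for 13 other pathway genes, Porcn (-0.16 to 0.18), Wls (-0.31 to 0.044), Vps35 (-0.23 to 0.022), Lrp5 (-0.16 to 0.018), Lrp6 (-0.11 to 0.15), Adgra2 (-0.046 to 0.60), Apcdd1 (-0.025 to 0.38), Rnf43 (-0.11 to 0.054), Btrc (-0.17 to 0.0099), Amer1 (-0.32 to 0.040), Ctnnb1 (-0.15 to 0.028), Ccnd1 (-0.015 to 0.15) and Nfatc3 (-0.20 to 0.035). The sign of the remaining 25 named genes held under every alternative run. Sign turns over all tested genes were not counted. Depth limits are unknown, since TPM does not keep read numbers.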

Other observations

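Pathway genes under the 1 TPM limit were not tested. Of the target gene list, 5 were under it. Tnfrsf19 was at 0.57, 0.39 and 1.17 TPM with FA, against 0.15, 0.13 and 0.34 TPM with PBS, and Nkd1 at 0.61, 1.02 and 1.36 TPM with FA, against 0.54, 0.52 and 0.86 TPM with PBS. Sp5 was at 0.42, 0.13 and 0.13 TPM with FA, against 0.45, 0.39 and 0.28 TPM with PBS. For both Nkd1 and Sp5 the groups overlapped, while for Tnfrsf19 they did not. The share without overlap among genes under the limit was not counted. Ascl2 and Prox1 reached at most 0.26 TPM in any tumour. Of the 4 R-spondins, Rspo3 was at 0.86, 0.33 and 0.32 TPM with FA, against 0.70, 0.73 and 0.85 TPM with PBS. The others reached at most 0.13 TPM. Among them Rspo1 had no overlap, at 0.10, 0.10 and 0.13 TPM with FA, against 0.02, 0.07 and 0.07 TPM with PBS.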
